A study of Mus musculus with 76 samples.

Results

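The comparison described here set Ghost cells against Pomc+ cells of the mouse hypothalamus under chow diet. All cells of the series labelled with the chow diet were taken, which gave 15 Ghost cells and 23 Pomc+ cells, or 38 of the 76 cells of the series, and no measured value entered the choice. The cells came from male reporter mice in which tamoxifen, given at 12 weeks of age, turned on a red fluorescent protein (tdTomato) for good in cells that carried an active *Pomc* promoter at that time, through the inducible recombinase CreERT2, and the chow mice were kept on that diet for 6 months. The genotype is written as Pomc CreERT2;tdTomato;Pomc-eGFP where the cell selection is described and as Pomc CreERT2;tdTomato elsewhere, and both labels shared it. A cell was called Pomc+ when green fluorescence driven by the *Pomc* promoter (Pomc-eGFP) was present and Ghost when it was absent, so that the labels rest on fluorescence seen before recording and not on RNA. The Cre line reports past *Pomc* promoter activity and does not separate cell types within that lineage.

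Pomc neurons of the arcuate nucleus make the precursor pro-opiomelanocortin. Its cleavage in secretory granules gives melanocyte-stimulating hormone, which lowers food intake through melanocortin receptors, and beta-endorphin. Pomc neurons intermingle with neurons that make *Npy* and *Agrp*, a pair of peptides that raise food intake, and many Pomc neurons also make the peptide CART from the gene *Cartpt*. The question of the comparison was how far a neuron of *Pomc* lineage without the reporter signal keeps the transcripts of a Pomc neuron.

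Each cell was recorded ex vivo and its content was then drawn into the recording pipette for full-length cDNA synthesis, a method called Patch-seq. The measurement is the number of reads per gene in 1 cell, without molecular identifiers, scaled below to CPM, the reads of a gene when all reads of the cell sum to 1000000. The labels name neither the mouse nor the experiment of any cell, and cells of 1 mouse are not replicates, so each label stood as 1 sample and no p-value was computed. Differences are given as ratios of mean CPM (Ghost over Pomc+) and as shares of cells with at least 1 count, whose exact binomial 95% intervals cover counting error only. Of the 56980 identifiers, 9745 had 5 or more counts in 3 or more of the 38 cells and were compared. This filter was passed on both labels together, so a gene high in only 1 label can pass through that label alone.

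Depth and composition differed between cells and moved with the label in part of the series. Ghost cells held 4057 to 985226 counts (median 123528) and Pomc+ cells 32151 to 1452605 (median 339691). The cell numbers of chow cells fall into 4 unbroken runs, which the labels do not name as batches. They hold 3 Ghost and 3 Pomc+ cells (numbers 630 to 636), 4 and 8 (658 to 669), 4 and 4 (684 to 692) and 4 and 8 (699 to 712). The 7 genes counted in every cell of the series, most of whose reads come from 1 identifier without a symbol, took 70.3 to 76.5% of the counts of Ghost cells and 17.5 to 28.7% of those of Pomc+ cells in the first run, and 51.4 to 96.0% in Pomc+ cells of the fourth. Over all genes compared, the median log2 ratio was -0.14, but it was -1.31 in the first run, 0.05 in the second, -0.15 in the third and 0.98 in the fourth. Ratios were also computed without the 7 genes counted in every cell and with runs left out, as given at the end. How much of each result below comes from these shifts was not tested. The number of runs with the same direction, or the values by run, are therefore given beside many of them.

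**Figure D1:**
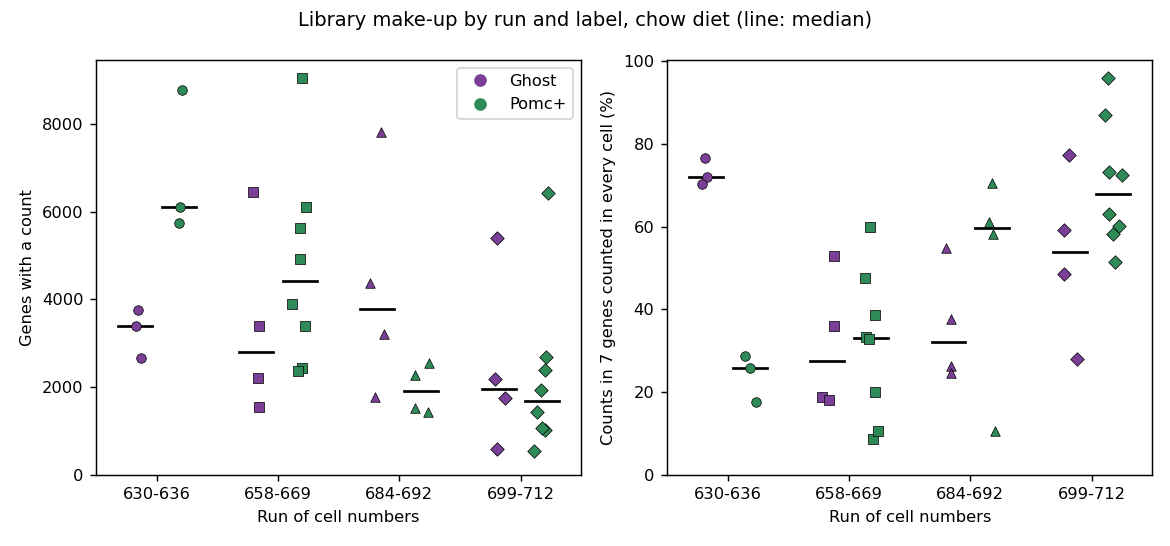
Genes with a count in each cell and the percentage of its counts in the 7 genes found in every cell of the series, by run of cell numbers and label (points are cells). In the first run the Ghost cells had the higher percentage (70.3 to 76.5% against 17.5 to 28.7%), and in the fourth the Pomc+ cells reached 96.0%.

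At least 2-fold higher mean CPM in Ghost cells was found for 2066 genes (21.2%) and at least 2-fold lower mean CPM for 2775 genes (28.5%). Asking also for the same direction in at least 3 of the 4 runs left 877 genes higher (9%) and 1706 lower (17.5%). These shares are the background against which each group of genes is to be read. No read was found in Ghost cells for 294 of the genes and none in Pomc+ cells for 18, and for these a floor was used, set at 3 counts divided by all counts of that label (0.639 CPM for Ghost, 0.292 CPM for Pomc+). Single cells weighed heavily on the ratios. Of 77 genes that the naming rule gave, leaving out 1 cell moved the ratio of 60 by over 1.5 times, and of those at least 2-fold apart it turned the direction of 1, *Sox11*. Genes named beside the rule are not in this count, and *Pcsk1* among them also turned.

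The reporter that defines the labels is driven by the promoter of *Pomc*, so the proximal promoters of *Pomc*, of *Cartpt* and of *Npy*, the gene with the widest contrast among the appetite peptides, are shown. They are the 250 bases before the annotated start of transcription in RefSeq (GRCm38.p6), written in the direction of transcription. The *Pomc* promoter lies at chr12:3954695-3954944 on the plus strand, that of *Cartpt* at chr13:99900684-99900933 on the minus strand and that of *Npy* at chr6:49822460-49822709 on the plus strand. Capitals mark exact matches, searched on both strands, to TATAAA (the TATA box), TAATTA (the core that many homeodomain factors bind), CANNTG (the E-box, bound by basic helix-loop-helix factors) and TGACGTCA (the cAMP response element).
Pomc: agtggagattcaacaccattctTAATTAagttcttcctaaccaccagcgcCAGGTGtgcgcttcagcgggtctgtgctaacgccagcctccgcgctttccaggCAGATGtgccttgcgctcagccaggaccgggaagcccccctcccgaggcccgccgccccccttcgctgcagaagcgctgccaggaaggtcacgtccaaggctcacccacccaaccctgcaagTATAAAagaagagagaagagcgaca
Cartpt: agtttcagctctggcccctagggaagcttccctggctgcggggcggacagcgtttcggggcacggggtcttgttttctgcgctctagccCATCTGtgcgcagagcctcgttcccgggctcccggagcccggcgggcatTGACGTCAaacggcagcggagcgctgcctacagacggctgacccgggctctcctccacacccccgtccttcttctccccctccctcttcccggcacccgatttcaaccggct
Npy: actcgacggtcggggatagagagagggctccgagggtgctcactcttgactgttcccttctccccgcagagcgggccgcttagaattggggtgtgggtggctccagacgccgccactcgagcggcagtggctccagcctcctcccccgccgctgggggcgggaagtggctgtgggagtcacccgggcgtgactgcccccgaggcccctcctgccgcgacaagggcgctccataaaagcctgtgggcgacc
The *Pomc* window held TATAAA 25 to 20 bases before the start, TAATTA and 2 E-boxes, and the *Cartpt* window held 1 E-box and 1 cAMP response element. The *Npy* window held none of the 4. Of 32851 promoter windows of the same length, 12.4% held TATAAA, 4.84% TAATTA, 66.2% CANNTG and 1.55% TGACGTCA, and a match is a description of letters and not a binding site. TCACACC, a T-box half-site, was in 3.33% of windows and in none of the 3 shown.

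*Pomc* RNA was counted in nearly all cells of both labels and was lower on average in Ghost cells, with wide overlap. Reads of *Pomc* were present in 14 of 15 Ghost cells (93.3%, 68.1 to 99.8%) and in 22 of 23 Pomc+ cells (95.7%, 78.1 to 99.9%), so absence of the green reporter did not go with absence of *Pomc* RNA. The median was 2291 CPM in Ghost cells, whose values spanned 0 to 34418 CPM, and 6176 CPM in Pomc+ cells, which spanned 0 to 43974 CPM. The Ghost cell without a read, number 712, was the shallowest at 4057 counts, and the Pomc+ cell without one, number 700, had 9.45% of its counts in mitochondrial genes. Only 3 of 15 Ghost cells (20%, 4.33 to 48.1%) reached 10000 CPM, at 13222, 15213 and 34418 CPM, against 11 of 23 Pomc+ cells (47.8%, 26.8 to 69.4%), and the intervals overlap. The 11 other Ghost cells with a read held 410 to 8515 CPM, within the range of the Pomc+ cells.

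The ratio of mean *Pomc* CPM was 0.540, from 6296 (SD 9003, 15 cells) over 11652 (SD 12554, 23 cells), and leaving out single cells moved it between 0.368 without Ghost cell 687 and 0.618 without Pomc+ cell 660. The run of cell numbers mattered more than any single cell. The ratio was 0.118 in the first run, 0.529 in the second, 0.680 in the third and 1.55 in the fourth. Median *Pomc* in Ghost cells was 2216, 7882, 2189 and 2105 CPM in the 4 runs, whereas in Pomc+ cells it was 23939, 13440 and 10346 CPM in the first 3 and 954 CPM in the fourth. It was therefore the Pomc+ level that changed most between runs, and the fourth run, where the every-cell genes took the largest share of Pomc+ counts, had the opposite direction. No cell of a lineage without *Pomc* is in the series, so the level that stray RNA would give was not measured.

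*Cartpt*, which encodes the anorexigenic peptide CART, had close medians in both labels. It was counted in 13 of 15 Ghost cells (0 to 6587 CPM, median 2270) and in all 23 Pomc+ cells (340 to 11086 CPM, median 2070). The ratio of means was 0.757, but the medians were in the other order, and 2 runs were higher and 2 lower in Ghost cells (0.235, 1.06, 0.641 and 1.29). The log2 ratio of -0.40 was -1.44 with the deposited normalized values and -1.38 as a difference of mean log2(CPM + 1). Within a cell the ratio of *Pomc* to *Cartpt* reads had a median of 2.17 in Ghost cells and 2.16 in Pomc+ cells, with ranges of 0.654 to 5.32 and 0 to 29.97. The ratio is not corrected for transcript length, which is the same in both labels. It was close at the median, and the highest ratios were those of Pomc+ cells.

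*Tbx3*, the T-box factor that maintains the peptide identity of these neurons, showed the clearest contrast of the 3 marker genes. It was counted in 5 of 15 Ghost cells (33.3%, 11.8 to 61.6%), at 1.01 to 58.5 CPM, and in 13 of 23 Pomc+ cells (56.5%, 34.5 to 76.8%), at up to 259 CPM. Ghost cells averaged 9.96 CPM (SD 19.7) and Pomc+ cells 57.1 CPM (SD 84.9), and the ratio of 0.174 stayed between 0.114 and 0.208 when single cells were left out. At a common depth of 40000 counts, which 12 Ghost and 21 Pomc+ cells reach, the expected share of cells with a *Tbx3* read was 24.8% in Ghost and 48.1% in Pomc+ cells. Ghost cells were lower in 3 runs, while in the third run 2 of 4 Ghost cells and 0 of 4 Pomc+ cells had a read. All 5 Ghost cells and all 13 Pomc+ cells with *Tbx3* also had *Pomc* and *Cartpt* reads.

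**Figure D2:**
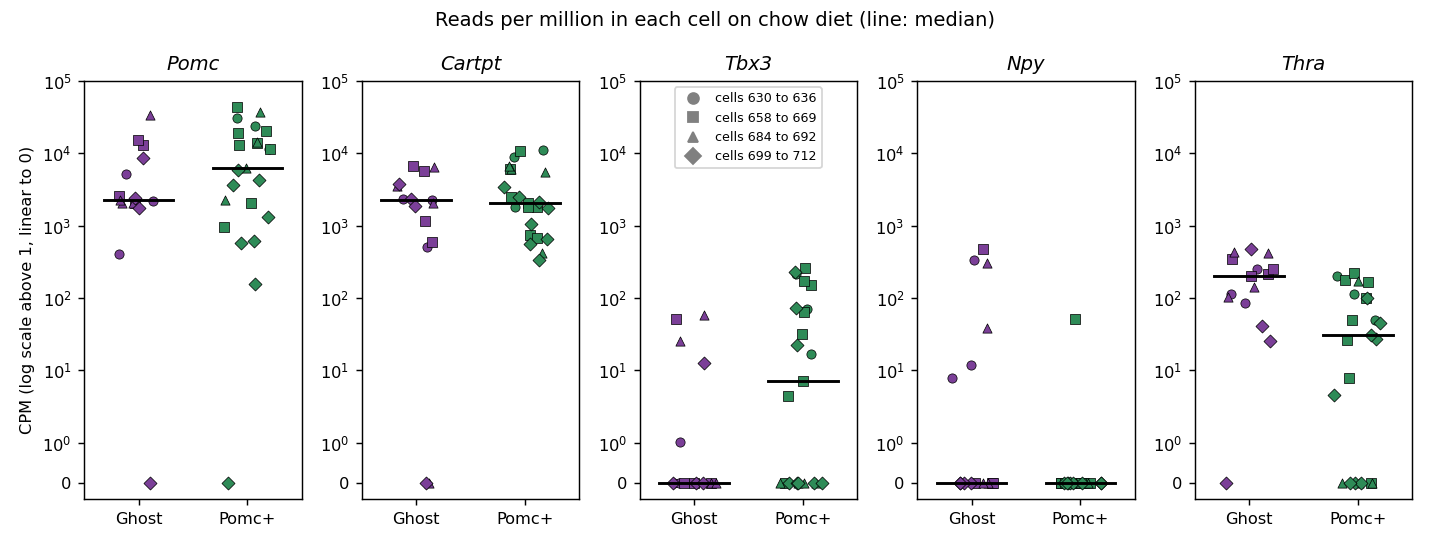
CPM of *Pomc*, *Cartpt*, *Tbx3*, *Npy* and *Thra* in each chow cell by label, on an axis that is linear near 0 and logarithmic above (points are cells, marker shapes give the run, lines the median). *Pomc* overlaps widely (medians 2291 and 6176 CPM), *Npy* reads lie in 6 Ghost cells and 1 Pomc+ cell, and *Thra* is higher in Ghost cells (medians 200.0 and 30.95 CPM).

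Other transcription factors of Pomc neurons were mixed. Of 20 listed, 13 were compared. At least 2-fold lower in Ghost cells were 6 (46.2% against 28.5% of all genes) and at least 2-fold higher 3 (23.1% against 21.2%). The median log2 ratio was -0.78 against -0.14 over all genes, but by run it was -3.42, -0.12, 1.02 and 0.75. All genes had run medians of -1.31, 0.05, -0.15 and 0.98. *Nkx2-1*, a homeodomain factor needed to form the ventral hypothalamus, was counted in 3 Ghost cells at up to 13.9 CPM and in 8 Pomc+ cells at up to 60.03 CPM, a ratio of 0.138 (0.058 without Ghost cell 661) with Ghost cells lower in all 4 runs. *Lhx2*, a LIM-homeodomain factor, had no read in 15 Ghost cells and reads in 6 of 23 Pomc+ cells, and *Foxo1*, an insulin-regulated repressor of *Pomc* transcription, had none against 7, with 75.2% of its summed Pomc+ CPM in 1 cell. With 0 of 15 cells, a share of up to 21.8% remains possible by the exact interval. *Isl1*, required for *Pomc* expression in development, was counted in 12 Ghost and 14 Pomc+ cells (ratio 1.44), and *Six3*, a homeodomain factor, in 12 and 16 (ratio 0.777). *Prdm12*, needed for *Pomc* expression, was counted in 3 Ghost and 9 Pomc+ cells (ratio 0.458) but was lower in 2 runs only and was 0.784 without Pomc+ cell 631. *Stat3*, which carries the leptin signal to the *Pomc* promoter, was counted in 9 and 16 cells (ratio 0.582, lower in 3 runs). *Neurog3* and *Rax*, which act in progenitors, had no read in any of the 38 cells.

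A panel of 39 genes that mark Pomc neurons in the HypoMap atlas of hypothalamic cells was taken from the study, which showed it on these samples, so its direction is not independent evidence. Reads were found for 38 of the genes (none for *Eda*) and 34 were compared. Ghost cells were at least 2-fold lower for 10 and at least 2-fold higher for 2, of which 9 and 1 kept the direction in at least 3 runs. The share of 29.4% at least 2-fold lower is near the 28.5% of all genes. Without regard to size, 24 were lower and 10 higher, where 54.2% of all genes were lower, and the median log2 ratio was -0.71. The panel's median lay below that of all genes in every run, at -2.09, -0.41, -0.60 and -0.28 for the panel in the 4 runs. *Rnf128*, a membrane-bound ubiquitin ligase, had the widest gap in expected share, 16.1% of Ghost against 65.7% of Pomc+ cells at 40000 counts. It was read in 3 Ghost cells at 63.2, 415 and 423 CPM and in 14 Pomc+ cells at 47.8 to 893 CPM, so the levels overlapped where the gene was read at all. Its ratio of 0.356 was 0.202 without Ghost cell 659. *Pon2*, a membrane paraoxonase, was counted in 3 Ghost and 10 Pomc+ cells (ratio 0.514, lower in 4 runs), whereas *Ptprm*, a receptor tyrosine phosphatase, was counted in 5 and 12 cells with a mean ratio of 1.68 that was 0.987 without Ghost cell 659.

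Reads of *Npy*, the orexigenic peptide of the neighbouring Agrp neurons, were found mainly in Ghost cells. *Npy* was counted in 6 of 15 Ghost cells (40%, 16.3 to 67.7%) and in 1 of 23 Pomc+ cells (4.35%, 0.110 to 21.9%). The Ghost cells held 7.7, 11.97, 39.02, 305, 333 and 480 CPM and the Pomc+ cell 51.1 CPM. At 40000 counts the expected shares were 37.3% and 4.17%. By run, *Npy* was read in 3 of 3 Ghost cells against 0 of 3 Pomc+ cells, then in 1 of 4 against 1 of 8, in 2 of 4 against 0 of 4 and in none of either label in the fourth. All 6 Ghost cells with *Npy* also had *Pomc* reads. *Agrp*, an inverse agonist of melanocortin receptors, was found in 2 of these 6 cells, at 63.9 and 102 CPM, and in Pomc+ cell 660 as 2 reads (10.5 CPM).

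**Figure D3:**
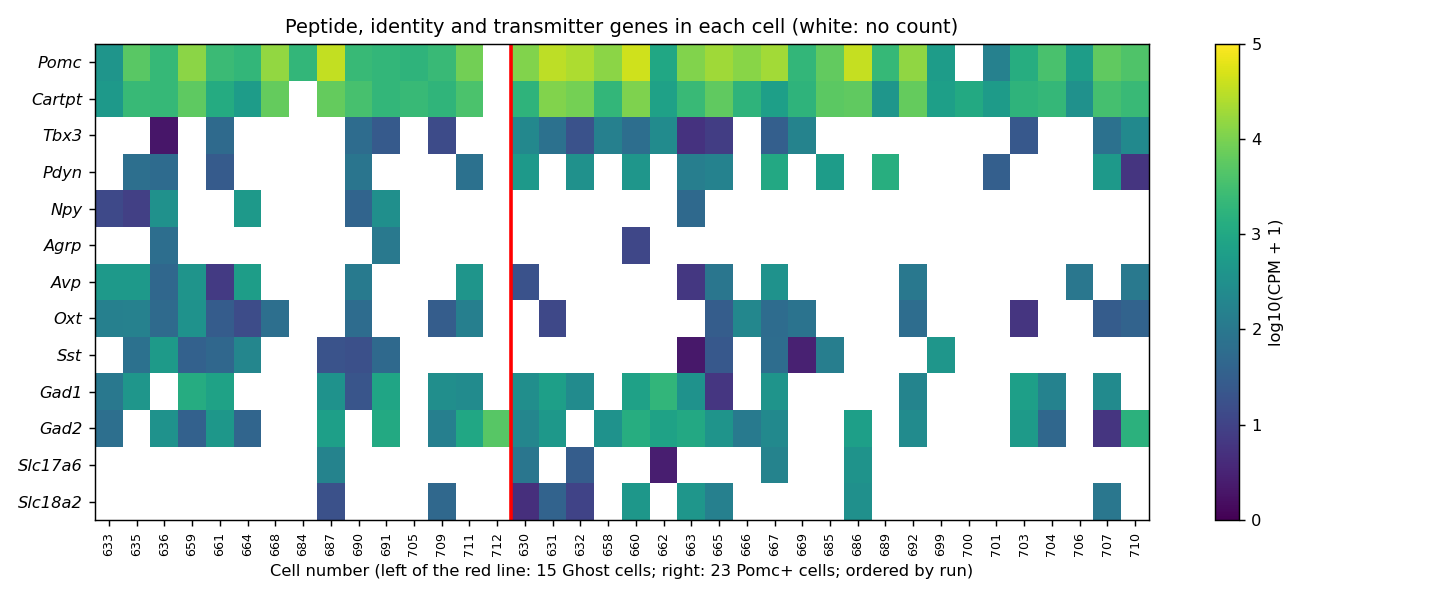
Expression, as log10 of CPM plus 1, of 13 genes in the 38 chow cells, ordered by label and run (white squares had no read). *Pomc* and *Cartpt* fill nearly all columns of both labels, while *Tbx3* and *Pdyn* are sparser in Ghost cells (read in 5 and 5 of 15, against 13 and 11 of 23) and *Npy* is sparser in Pomc+ cells (1 of 23 against 6 of 15).

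Of 24 neuropeptide genes 11 were compared. At least 2-fold higher in Ghost cells were 5 (45.5% against 21.2% of all genes) and at least 2-fold lower 2 (18.2% against 28.5%). The median log2 ratio was 0.43, but by run it was -1.31, 0.09, -0.64 and 0.50. *Avp*, the vasopressin gene of magnocellular and suprachiasmatic neurons, was counted in 8 Ghost cells (6.0 to 617 CPM) and 7 Pomc+ cells (5.4 to 354 CPM), with means of 170 and 33.3 CPM, a ratio of 5.09 (9.03 without Pomc+ cell 667) and Ghost cells higher in 4 runs. *Oxt*, the oxytocin gene, was counted in 10 Ghost cells (13.7 to 353 CPM) and 9 Pomc+ cells (5.0 to 201 CPM), a ratio of 3.16. Both transcripts are best known from nuclei outside the arcuate nucleus, and the part of RNA from other cells in them was not tested. The somatostatin gene *Sst* was read in 8 Ghost and 6 Pomc+ cells, and its ratio of 2.25 was 1.08 without Ghost cell 636 and went below 1 without the first run. Ghost cells were lower for *Pdyn*, the prodynorphin gene, in all 4 runs. *Pdyn* was counted in 5 Ghost cells at 25.9 to 85.8 CPM and in 11 Pomc+ cells at 4.8 to 1353 CPM, a ratio of 0.0923 that stayed between 0.0711 and 0.120 without single cells. All 5 Ghost values lay below those of 9 of the 11 Pomc+ cells with a read. *Nnat*, which encodes the membrane protein neuronatin, was counted in 9 and 15 cells with a ratio of 0.571. *Penk*, *Kiss1*, *Crh* and *Nmu* were not read in any cell.

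Granule and precursor-processing genes as a list were lower in Ghost cells at the median, but not in every run. All 16 listed genes were compared, and 10 of them had a lower expected share in Ghost cells at 40000 counts (55.5% of all genes did). In mean CPM 12 were lower and 4 higher, where 54.2% of all genes were lower. At least 2-fold lower were 3 (18.8% against 28.5% of all genes) and at least 2-fold higher 2 (12.5% against 21.2%). The median log2 ratio was -0.47 against -0.14 over all genes. By run the list median was -1.99, -0.04, 0.69 and 0.16. *Scg2*, a granin of dense-core granules, was read in 8 Ghost and 18 Pomc+ cells, or 47.4 and 77.8% at 40000 counts, with a median of 28.4 CPM against 449 CPM, but the ratio of means was 0.877 since the few Ghost cells with it reached 2997 CPM. *Chga*, another granin, was read in 7 and 14 cells (ratio 0.750). *Vgf*, the precursor of several secreted peptides, was read in 11 and 20 cells with a ratio of 0.670, which was 0.344 without Ghost cell 687. Its mean was lower in Ghost cells in all 4 runs, but nearly level in the third (342.2 and 344.4 CPM). *Ptprn2*, a granule membrane protein, was read in 5 and 8 cells (ratio 0.408). The convertase *Pcsk1*, which makes the first cuts in pro-opiomelanocortin, was read in 8 and 9 cells and had a ratio of 2.19, which was 0.967 without Ghost cell 664. *Pcsk2*, which makes the later cuts, had a ratio of 0.271 with the runs evenly split, and carboxypeptidase E (*Cpe*), which trims the products, was read in 12 and 22 cells with a ratio of 0.575. *Pcsk1n*, an inhibitor of *Pcsk1*, was near universal (14 and 23 cells, ratio 1.35).

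Chaperones of the endoplasmic reticulum, where secreted precursors fold, were close to all genes in the share at least 2-fold lower, while single members stood apart. Of 22 listed genes 20 were compared, with 6 at least 2-fold lower (30% against 28.5% of all genes) and 2 at least 2-fold higher (10% against 21.2%). In mean CPM 14 were lower and 6 higher, where 54.2% of all genes were lower. The median log2 ratio was -0.47 against -0.14 over all genes. The list median was -1.49 and -0.74 in the first and second runs and 0.39 and 0.78 in the third and the fourth. *Pdia3*, a disulfide isomerase for glycoproteins, was read in 5 of 15 Ghost cells (33.3%, 11.8 to 61.6%) and in 17 of 23 Pomc+ cells (73.9%, 51.6 to 89.8%). The Ghost cells with reads held 13.7, 55.7, 145, 317 and 500 CPM and the Pomc+ cells 10.6 to 1198 CPM, and the ratio was 0.219 (0.121 without Ghost cell 687) with Ghost cells lower in all 4 runs. Its partners calnexin (*Canx*) and calreticulin (*Calr*) were read in 8 and 17 and in 7 and 19 cells, with ratios of 0.412 and 0.479. *Canx* was lower in all 4 runs and *Calr* in 2. *Hsp90b1* and *Pdia4* had ratios of 0.485 and 0.130, whereas *Hspa5*, the most general chaperone of this compartment, was read in 13 and 18 cells with a ratio of 0.871. In contrast *Ddit3*, a transcription factor induced by unfolded-protein stress, was read in 7 Ghost and 2 Pomc+ cells, at 1.0 to 167 and at 26.3 and 57.2 CPM, with Ghost cells higher in 3 runs and a ratio of 8.99, between 6.34 without Ghost cell 684 and 27.3 without Pomc+ cell 665. The 66.1-fold ratio of *Atf6* rested on 2 Ghost cells and 1 Pomc+ cell.

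The GABA genes were read in similar shares of both labels. *Gad1* or *Gad2*, which make GABA, were read in 12 of 15 Ghost cells (80.0%, 51.9 to 95.7%) and in 16 of 23 Pomc+ cells (69.6%, 47.1 to 86.8%). *Slc17a6*, the vesicular glutamate transporter of this region, was read in 1 Ghost and 5 Pomc+ cells (means 11.4 and 28.99 CPM, ratio 0.393, or 0.864 without Pomc+ cell 686), all of which also had a *Gad* gene, and 3 Ghost and 7 Pomc+ cells had reads of none of these genes. The ratio of *Gad2* was 1.65 but 0.766 without Ghost cell 712. Of 14 listed genes 8 were compared, with 2 at least 2-fold lower (25% against 28.5% of all genes), none higher and a median log2 ratio of -0.23. The 2 were *Slc17a6* and *Slc18a2*, the vesicular monoamine transporter and also a member of the atlas panel, read in 2 Ghost cells (16.2 and 47.4 CPM) and 8 Pomc+ cells (3.7 to 447 CPM) with a ratio of 0.0656 (0.018 without Ghost cell 709).

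Among 30 receptors of hormones and peptides, 22 were compared, with a median log2 ratio of -0.08. At least 2-fold higher in Ghost cells were 7 (31.8% against 21.2% of all genes) and at least 2-fold lower 1 (4.55% against 28.5%). *Thra*, the thyroid hormone receptor alpha, had a higher mean in Ghost cells in every run, with ratios of 1.24, 2.67, 6.44 and 5.12. Its medians in the first run were level (113.7 and 113.6 CPM). It was read in 14 of 15 Ghost cells (93.3%, 68.1 to 99.8%), with 0 CPM in 1 cell and a median of 200.0 and a highest value of 469 CPM, and in 16 of 23 Pomc+ cells (69.6%, 47.1 to 86.8%), with a median of 30.95 and a highest value of 225 CPM. The ratio of means was 3.17, it stayed between 2.88 and 3.56 without single cells. At 40000 counts the expected shares were 95.5 and 59.04%. Ranges overlapped, but 6 Ghost cells lay above the highest Pomc+ cell.

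*Glp1r*, the receptor of the satiety hormone GLP-1, was read in 5 and 4 cells, at 11.7 to 288 and 15.8 to 114 CPM, with a ratio of 3.35 that was 1.84 without Ghost cell 691. *Insr*, the insulin receptor, was read in 5 and 6 cells with a ratio of 2.31 and Ghost cells higher in 2 of 4 runs, and its log2 ratio was -0.07 with the deposited normalized values. *Lepr*, the leptin receptor, was read in 3 and 4 cells (ratio 0.910), so a difference could not be seen at this depth. *Cckar*, the cholecystokinin receptor and a member of the atlas panel, was read in 1 Ghost and 5 Pomc+ cells (ratio 0.0495), and *Mc3r*, a melanocortin receptor, in 1 and 3. *Mc4r*, *Gipr*, *Htr1b* and *Oprm1* had no read in the 38 cells.

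Ion channels moved both ways. Of 34 listed genes 29 were compared, with 13 at least 2-fold higher (44.8% against 21.2% of all genes) and 6 at least 2-fold lower (20.7% against 28.5%). The median log2 ratio was 0.29, but by run it was -1.77, 1.12, -0.15 and 2.04. With the same direction in at least 3 runs, 6 of the 29 were higher (20.7% against 9% of all genes). The 5 of 29 that were lower in at least 3 runs were close to the 17.5% of all genes. *Nalcn*, the sodium leak channel that depolarises resting neurons, was read in 1 Ghost cell at 31.6 CPM and in 9 Pomc+ cells at up to 361 CPM (ratio 0.0487). *Cacna1b*, the N-type calcium channel, was read in 5 and 11 cells (ratio 0.485). *Trpm3*, a cation channel gated by steroids and heat, was read in 7 and 8 cells, and its ratio of 3.89 had the same direction in 4 runs but was 2.001 without Ghost cell 712. The largest ratio of the list, 84.0 for the potassium-channel subunit *Abcc8*, came from 2 Ghost cells and 1 Pomc+ cell, with 97.96% of the summed Ghost CPM in cell 712, which had the fewest counts.

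Genes that mark neurons in general differed less. Of 22 compared, 1 was at least 2-fold higher and 1 at least 2-fold lower, with a median log2 ratio of -0.20, near that of all genes. *Snap25*, a vesicle fusion protein, was read in 13 and 20 cells (ratio 0.733). *Elavl2*, an RNA-binding protein of neurons, was read in 7 and 4 cells with a ratio of 14.2 (7.25 without Ghost cell 668), while its relative *Elavl3* was read in 6 and 13 cells (0.636). *Nefl*, the light neurofilament, was read in 4 and 13 cells (0.583), and the long noncoding RNA *Snhg11* in 12 and 13 cells (0.875). Of 12 genes of maturation and progenitor states 8 were compared, with 1 at least 2-fold higher, 1 at least 2-fold lower and a median of 0.17. Among them *Calb2* (calretinin) was read in 10 and 13 cells (0.969), *Sox2* in 3 and 5 (1.19), *Neurod1* in 3 and 6 (1.58) and *Sox11* in 4 and 5. The ratio of 2.80 for *Sox11* was below 1 without Ghost cell 668.

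Among 20 immediate early genes, which neurons switch on within minutes of activity, 14 were compared. Of these 7 were at least 2-fold lower (50% against 28.5% of all genes) and 3 at least 2-fold higher (21.4% against 21.2%). The median log2 ratio was -0.97, but by run it was -2.69, -1.02, -1.36 and 1.20. *Fos* was read in 7 Ghost and 15 Pomc+ cells (ratio 0.890), *Jun* in 7 and 13 (0.475), *Egr1* in 4 and 9 (0.372) and *Junb* in 8 and 12 (1.497). Ghost cells were lower in 3 runs for *Jun* and *Egr1* and in 2 for *Fos* and *Junb*. *Atf3*, also an injury gene, had no read in 15 Ghost cells and reads in 6 of 23 Pomc+ cells. The cells had been sliced and recorded before collection, and the part of handling in these reads was not tested.

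The 30 nuclear-encoded genes of the respiratory chain were nearly level, with 1 at least 2-fold lower, 1 at least 2-fold higher and a median log2 ratio of 0.18. The member at least 2-fold lower was *Uqcrc2*, a core subunit of complex III, read in 4 Ghost and 10 Pomc+ cells with a ratio of 0.212 and the same direction in 4 runs. *Sdhb* of complex II was read in 9 and 16 cells (1.13), *Cox7c* of complex IV in 15 and 19 (1.17) and *Cox6a1* in 14 and 20 (0.663). Of 11 noncoding RNAs kept in the nucleus, 9 were compared and 4 were at least 2-fold lower (44.4% against 28.5% of all genes), none higher. Their median was -0.77, but by run it was -3.91, -1.81, -0.43 and 1.46. *Meg3* was read in 11 and 19 cells (0.587), *Snhg14* in 7 and 11 (0.334) and *Miat* in 2 and 7 (0.460). A lower yield of nuclear RNA into the pipette and less of it in the cell cannot be told apart here.

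**Figure D4:**
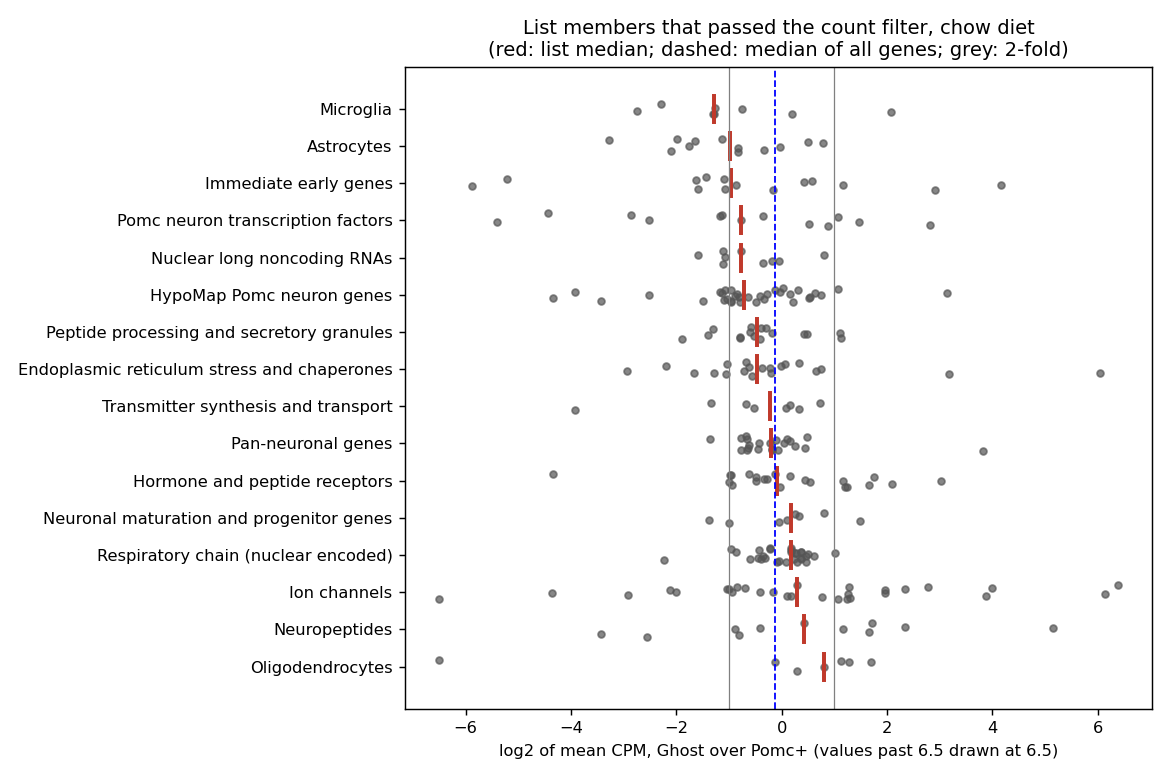
Log2 ratio of mean CPM (Ghost over Pomc+) of the compared members of each gene list (points), for the lists with at least 7 compared members, with the list median in red, the median of all 9745 genes (-0.14) dashed and 2-fold limits in grey. Medians lie lowest for microglial (-1.28), astrocyte (-0.99) and immediate early genes (-0.97) and above 0 for oligodendrocyte genes (0.81) and neuropeptides (0.43). By run the oligodendrocyte median was -1.63, 0.81, -1.48 and 0.76.

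Markers of glia were present in both labels, and their direction differed between lists and runs. Of 15 microglial genes 14 had reads and 8 were compared, with 5 at least 2-fold lower (62.5% against 28.5% of all genes) and 1 higher (12.5% against 21.2%). The summed level of the list was 0 to 2538 CPM in Ghost cells (median 645) and 11.7 to 10674 CPM in Pomc+ cells (median 980). *P2ry12*, a defining marker, had no read in any cell. *Aif1* was read in 1 Ghost and 7 Pomc+ cells, *Tyrobp* in 2 and 7 and *C1qb* in 4 and 6. Of 15 astrocyte genes, all with reads, 12 were compared with 6 at least 2-fold lower (50% against 28.5% of all genes) and none higher. The sums were 0 to 2457 CPM (median 501) and 46.9 to 12325 CPM (median 1273). The highest sum of both lists was in Pomc+ cell 704, with 10 of the 15 microglial and 12 of the 15 astrocyte genes.

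The ratios were 0.253 for the glutamate transporter *Slc1a3*, 0.104 for angiotensinogen (*Agt*) and 1.71 for the transporter *Slc1a2*, the last at 0.821 without Ghost cell 711. Oligodendrocyte genes had a median above 0 over all cells (0.81, 7 of 15 compared), but the runs were split. Of the genes compared, 3 were at least 2-fold higher (42.9% against 21.2% of all genes) and 1 lower (14.3% against 28.5%). None of the 3 was higher in at least 3 runs. By run the list median was -1.63, 0.81, -1.48 and 0.76, with 2 to 5 genes a run. At the common depth, 3 had a higher expected share in Ghost cells and 4 a lower one. The sums were 0 to 986 CPM in Ghost and 0 to 1173 CPM in Pomc+ cells. The myelin genes *Mbp* and *Cnp* had ratios of 0.921 and 1.75, while *Trf* (transferrin) was read in 1 Ghost cell at 1.01 CPM and in 7 Pomc+ cells at up to 317 CPM. Only 2 of 10 tanycyte genes were compared, *Vim* among them (ratio 0.597), and 2 of 14 endothelial and mural genes, both lower. The astrocyte list had median log2 ratios of 1.20 and 0.61 in the first and second runs (2 of 8 and 4 of 10 genes lower) and of -2.16 and -2.31 in the third and the fourth (7 of 7 and 7 of 8 lower), so its direction over all cells was that of the later runs. The microglial list, with 2 to 8 genes a run, was below 0 in all 4 runs (-0.43, -1.94, -1.58 and -0.85). The part of glial RNA in the differences above was not tested.

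Outside the lists, 6216 genes had a symbol and a read in at least 8 cells, of which 667 were at least 2-fold higher in Ghost cells with 3 or more runs in the same direction and 1083 at least 2-fold lower. Ranked by the gap in expected share at 40000 counts, the 10 that led among the higher genes were *Tsr3*, *Polr2e*, *Plekha3*, *Sfpq*, *Ube2e3*, *Dcun1d1*, *Sergef*, *Tnpo1*, *Nol7* and *Nexmif*. They include factors of ribosome maturation (*Tsr3*), transcription (the polymerase subunit *Polr2e*), splicing (*Sfpq*), ubiquitin and NEDD8 transfer (*Ube2e3*, *Dcun1d1*) and nuclear import (*Tnpo1*). *Tsr3* was read in 10 of 15 Ghost and 5 of 23 Pomc+ cells, or 72.3 and 18.98% at the common depth, with means of 80.3 and 18.7 CPM and a ratio of 4.29 (8.30 without Pomc+ cell 686). *Sfpq* was read in 8 and 7 cells, at 16.2 to 171 CPM in Ghost and 1.9 to 41.4 CPM in Pomc+ cells, with a ratio of 8.42 and all 4 runs in the same direction. *Plekha3*, *Ube2e3*, *Sergef* and *Nol7* were also higher in 4 runs, with ratios of 3.30, 3.11, 4.09 and 2.96. *Dcun1d1* was read in 8 and 4 cells and *Tnpo1* in 9 and 4, with ratios of 16.4 and 7.24.

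The 10 that led among the lower genes were *Blcap*, *Serinc3*, *Srpk2*, *Nceh1*, *Trnau1ap*, *Txlna*, *Pgk1*, *Aplp2*, *Nrip3* and *Ergic1*. *Blcap* was read in 4 of 15 Ghost cells, at 7.8 to 318 CPM, and in 16 of 23 Pomc+ cells, at 52.1 to 715 CPM, a ratio of 0.164 (0.0595 without Ghost cell 687). *Trnau1ap*, which binds the selenocysteine tRNA, was read in 1 Ghost and 13 Pomc+ cells (ratio 0.0189) and *Txlna*, a taxilin that binds syntaxins, in 2 and 11 (0.0413). *Pgk1*, a glycolytic enzyme, was read in 7 and 17 cells (0.271), *Aplp2*, a relative of the amyloid precursor, in 5 and 17 (0.255), and *Nceh1*, a cholesterol ester hydrolase, in 3 and 14 (0.155). Ghost cells were lower in all 4 runs for 7 of the 10, the exceptions being *Serinc3*, *Nrip3* and *Ergic1* with 3. The first run, in which Ghost cells were shifted down over all genes, is 1 of these runs for every gene.

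**Figure D5:**
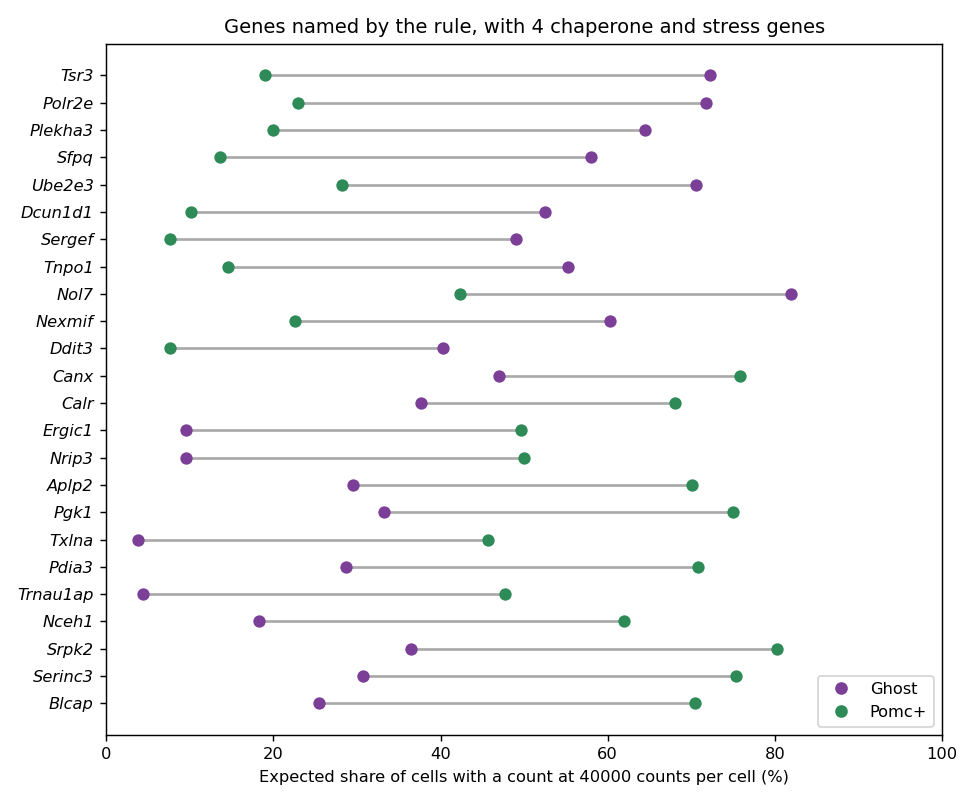
Expected percentage of cells with at least 1 read at 40000 counts in Ghost and Pomc+ cells (a pair of points for each gene) for the 20 genes named outside the lists and for *Pdia3*, *Calr*, *Canx* and *Ddit3*. The gap reaches 72.3 against 18.98% for *Tsr3* and 25.4 against 70.4% for *Blcap*.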

How the data were processed

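Patched cells were reverse transcribed by the SMART-Seq Single Cell chemistry, then made into libraries with Nextera XT. The submitters' processing notes name cutadapt 2.10, STAR 2.7.5a, DESeq2 and the builds GRCm38 and mm10, and the read counter is not given in the sources used here. The deposited table of raw counts holds whole reads per gene and cell without molecular identifiers, and a second deposited table holds a normalized signal, which equalled the count divided by 1 factor per cell (largest relative gap 3.79e-15).

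Columns were matched to samples by cell number and groups were taken from the labels. Of 56980 identifiers, 52073 had a symbol. CPM, ratios of mean CPM and shares of cells with a count were computed with Python 3.11.15, numpy 2.4.6, pandas 2.3.3 and scipy 1.17.1 on genes with 5 or more counts in 3 or more chow cells, after the scripts were tested on simulated data. Expected shares at 40000 counts are hypergeometric. No test was run, because the labels name no mouse. Cells were patched singly by hand and no doublet caller was used. No pair of cells held identical values. The high-fat cells were not analysed here.

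The members, gene lists and rules were chosen with earlier results of these data known. Of each list, up to 4 members read in at least 8 cells were named by the gap in expected share, and outside the lists the 10 leading genes in each direction. Members of the lists of peptides, receptors and transmitters could be named whatever they showed. Other list members (*Lhx2*, *Foxo1*, *Isl1*, *Six3*, *Pcsk1*, *Pcsk2*, *Cpe*, *Pcsk1n*, *Hsp90b1*, *Pdia4*, *Hspa5*, *Atf6*, *Abcc8*, *Snap25*, *Atf3* and genes without a read) were named after their values were seen. Alternatives were the deposited normalized values, summed counts, log means, cell filters, no gene filter, single cells or runs left out and means within runs. Leaving out a run was chosen after seeing the data. Promoters came from RefSeq. A few genes that the rule names are not reported here.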

Additional observations from a re-analysis of the deposited data

How the results depend on the processing

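The labels name no mouse and depth limits each share, so intervals and floors cover counting error only, and the run of cell numbers is no stated batch. No paired analysis was possible because cell numbers are unique to a cell and no test was run. Directions of *Pomc*, *Tbx3*, *Cartpt* and the atlas panel were the same under all alternatives. The deposited normalized values shifted the median log2 ratio of all genes by -0.64 and that of summed counts by -0.46. With the normalized values the log2 ratio was -2.02 for *Pomc*, -1.44 for *Cartpt* and -1.45 for the panel median, with 1143 genes at least 2-fold higher and 4395 lower, and that of *Insr* changed sign (-0.069). Relative to the shift, *Pomc* and *Cartpt* were still lower. Summed counts gave 1081 genes higher, and reversed *Sox11* (-0.029) and *Polr2e* (-0.0044). Means of log2(CPM + 1) gave -1.89 for *Tbx3*, -1.38 for *Cartpt*, 824 genes higher and 1224 lower. Means of log2 ratios within runs gave -4.88 for *Tbx3* (from 3 runs, since the third gives no ratio), 1172 genes higher, 1677 lower and 0.48 for *Prdm12*. No gene filter gave 4586 higher and 5184 lower. Without the third run *Tbx3* was -3.54, and without the first *Prdm12* was 0.053 and *Sst* -0.14, while *Cartpt* was -0.02, *Pomc* -0.48 and the panel -0.14 against 0.18 for all genes. Leaving out single cells gave -1.44 to -0.69 for *Pomc*, -3.14 to -2.27 for *Tbx3*, -0.57 to -0.25 for *Cartpt*, -0.86 to -0.45 for the panel, 1874 to 2305 genes higher and 2641 to 3327 lower, and reversed *Sox11* (-0.22 without Ghost cell 668, up to 2.86 without Pomc+ cell 662). With cells of at least 1000 genes and 40000 counts, *Pomc* was -1.14 and *Tbx3* -2.40. Of the values for the named genes under alternatives other than leaving out single cells, 286 moved (by 1.5-fold or more or, for a share, out of its interval), 6 reversed and 456 did neither. A reversal was counted only for genes at least 2-fold apart, so the 286 and the 456 can hold changes of sign of smaller ratios.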
